A study of Mus musculus with 13 samples.

Results

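The comparison described here set unstimulated CD8+ T cells without Batf against their wild-type counterparts, on 3 Batf-/- and 2 wild-type arrays, which are 5 of the 13 arrays of the study. The cells of both genotypes were P14 T cells of the C57Bl/6 strain, taken on day 0 as naive cells. The P14 transgene encodes a T cell receptor against a peptide of a mouse virus, which gives the CD8+ T cells of these mice largely 1 specificity, and it was present in controls and Batf-/- mice alike. The other 8 arrays, 4 of each genotype, held the same kinds of cells after 3 days of stimulation by plate-bound anti-CD28 and anti-CD3 with IL-2 at 100 U/ml, and they enter here for the spread between arrays and for 1 comparison at the end. CD8+ T cells had been enriched by magnetic negative selection, in which other cells are labelled and held back, so that whatever was not labelled stays in the preparation. The labels give no age or sex and do not say whether the arrays of a group came from separate mice, so the p-values reflect array-to-array spread only, which may be technical. Array membership followed the sample titles, and no measured value was used to choose it.

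Batf is a small bZIP transcription factor of the AP-1 family. It has no activation domain of its own, pairs with Jun proteins and binds DNA together with Irf4 or Irf8 at composite elements. It is best known in lymphocytes that have been activated, where it is needed for type 17 helper T cells, for class switching in B cells and for the expansion of effector CD8+ T cells. The naive comparison asks what differed in the T cell preparations before any stimulation was given.

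Differences are given as log2 Batf-/- minus wild type, ± the standard error of the fit (n = 3 and 2 throughout), and an adjusted p below 0.05 in limma counts as passed. Levels are log2 intensities in the order wild-type replicates 1 and 2, then Batf-/- replicates 1, 2 and 3. Each gene is represented by its probe set with the highest mean over all arrays. A group mean below 4.72, the 40th percentile of the probe sets, is called dim, and a difference from a dim group is a lower bound. Naive arrays varied more among themselves than day 3 arrays, with a median residual SD of 0.134 against 0.11, so that the p-values of the pooled fit tend to be too low here. A fit that gave each state its own weight (0.65 for naive, 1.31 for day 3) is therefore quoted beside it as the state-weighted adjusted p. A level measured in a bulk sample cannot tell fewer cells of a type apart from less RNA per cell.

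The 5 preparations were not alike, and the differences between them did not follow the genotype alone. The first principal component of the naive arrays, with 52.9% of the variance, placed Batf-/- replicate 1 at 51.51 and the others between -21.76 and -1.06. In that replicate 201 of 18194 genes lay at least 2-fold above every other naive array, 37 of them at least 4-fold. The leading ones included the basophil protease gene Mcpt8 (9.50 against at most 5.54 elsewhere), the IgE receptor chain Fcer1a (7.05 against at most 3.28) and the granulocyte genes S100a8, Ctsg, Lcn2, S100a9 and Prtn3. Dmkn was among them too (6.96 against at most 3.34). Wild-type replicate 2 had 8 such genes, led by digestive enzymes of the pancreas, with Cpb1 at 6.78 against at most 3.59 and Cela2a at 6.69 against at most 3.71. Batf-/- replicate 3 had 4, led by variable segments of the antibody light chain (10.96 against at most 8.62 for the leading one), and wild-type replicate 1 and Batf-/- replicate 2 had 0. The genes that stood most above the others in Batf-/- replicate 2 were Klrg1 (7.73 against at most 6.78) and Gzma (12.52 against at most 11.76), both of cytotoxic lymphocytes.

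Markers of the CD8 T cell were high on every array. Cd3d, Cd3g and Cd8b1, chains of the T cell receptor complex and the CD8 coreceptor, lay between 11.92 and 13.49 on all 5 arrays. Cd8a read 12.39 and 12.19 in wild type and 11.66, 12.38 and 12.27 in Batf-/-. Of 7 measured CD8 T cell markers 0 passed and 0 passed in the state-weighted fit. An unadjusted p below 0.05 was reached by 1 of the 7, and by 2381 of the 18194 genes tested. The mean of the list was lowest in Batf-/- replicate 1 (10.32 against 10.67 to 10.81 on the others). Of the 7 only the Tcra probe set was dim.

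**Figure D1:**
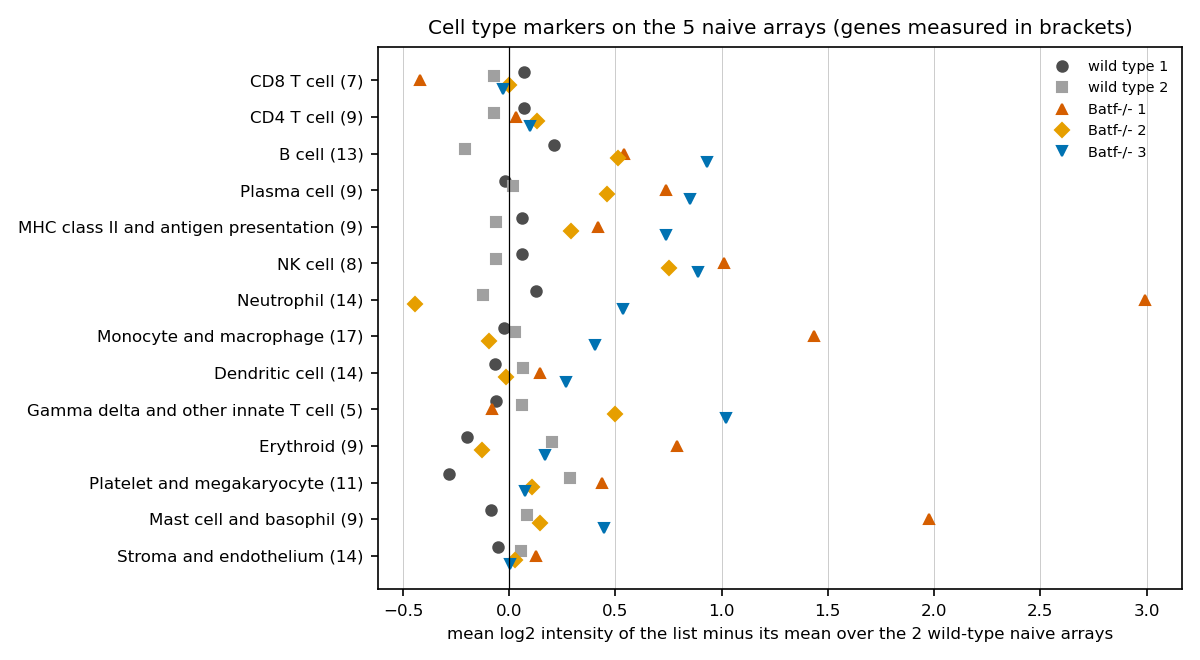
Mean log2 intensity of each list of cell type markers on the 5 naive arrays, as the difference from its mean over the 2 wild-type arrays, with the number of measured genes in brackets and 1 symbol per array. The neutrophil and the mast cell and basophil lists stand out in Batf-/- replicate 1, while the B cell, plasma cell and NK cell lists lie above both wild-type arrays in all 3 Batf-/- arrays.

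Batf was lost in every Batf-/- array. Its single probe set, on chromosome 12, read 9.19 and 9.36 in wild type and 5.60, 6.06 and 5.94 in Batf-/- cells, so that the groups lay far apart with no overlap. The difference was -3.41 ± 0.29 or 10.6-fold (adjusted p = 0.000133, state-weighted adjusted p = 0.00276), and it passed as well on the 5 naive arrays alone (adjusted p = 0.0162). Batf RNA was therefore readily measured in unstimulated wild-type cells, at a level close to the day 3 mean of 8.86.

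The other members of the AP-1 family showed no such gap. Batf3, the close relative that can replace Batf in some cells, read 6.28 and 6.49 against 6.41, 6.33 and 6.39, and Junb, a partner of Batf, read 9.36 and 9.47 against 9.54, 9.38 and 9.29. Of 17 measured genes for AP-1 and related bZIP factors only Batf passed in this fit, and the median of the list was 0.18 with all arrays and 0.06 without Batf-/- replicate 1. All Batf-/- arrays lay above wild type for 7 of the 17 and below for 2, against 11.8% and 12.7% of all genes. An unadjusted p below 0.05 was reached by 6 of the 17, and by 2381 of all 18194 genes. Jun (0.37, adjusted p = 0.176) and the repressor Jdp2 (0.79, adjusted p = 0.216) were highest in Batf-/- replicate 1.

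Beyond Batf, more genes were higher than lower in the naive Batf-/- preparations. Of 18194 genes 161 passed, or 0.885%, with 130 higher (0.715%) and 31 lower (0.17%), and 49 of the former and 6 of the latter changed at least 2-fold. All 161 had no overlap between the groups, as did 11.8% of all genes upward and 12.7% downward. In the state-weighted fit 64 genes passed (0.352%), 59 higher (0.324% of all genes) and 5 lower (0.0275%), and all 64 were among the 161. Without Batf-/- replicate 1, 237 genes passed (1.3%), among them 130 of the 161, including all of these 64. Among the 130 higher genes the highest array was Batf-/- replicate 1 for 48, replicate 2 for 20 and replicate 3 for 62.

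The counts depended on which arrays were used. Over all probe sets of the genes 267 of 34958 passed (0.764%), 188 higher and 79 lower, against 4697 with an unadjusted p below 0.05. That count was 90 with state weights (0.257%) and 2 with the spread of the 5 naive arrays alone. Dropping a naive wild-type array left 169 (replicate 1) or 143 (replicate 2), and dropping a naive Batf-/- array left 372 (replicate 1, 1.06%), 1123 (replicate 2) or 157 (replicate 3). Dropping a day 3 array left 161, 170 or 167 for wild-type replicates 1 to 3 in turn, and 165 or 175 for Batf-/- replicates 2 or 3. The split into higher and lower moved with the scaling, to 174 and 122 after centring on the array medians, to 207 and 185 with 16 added to each value, and to 167 and 112 without the dim probe sets. Of the 161 genes 41 passed in every fit that left out an array.

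**Figure D2:**
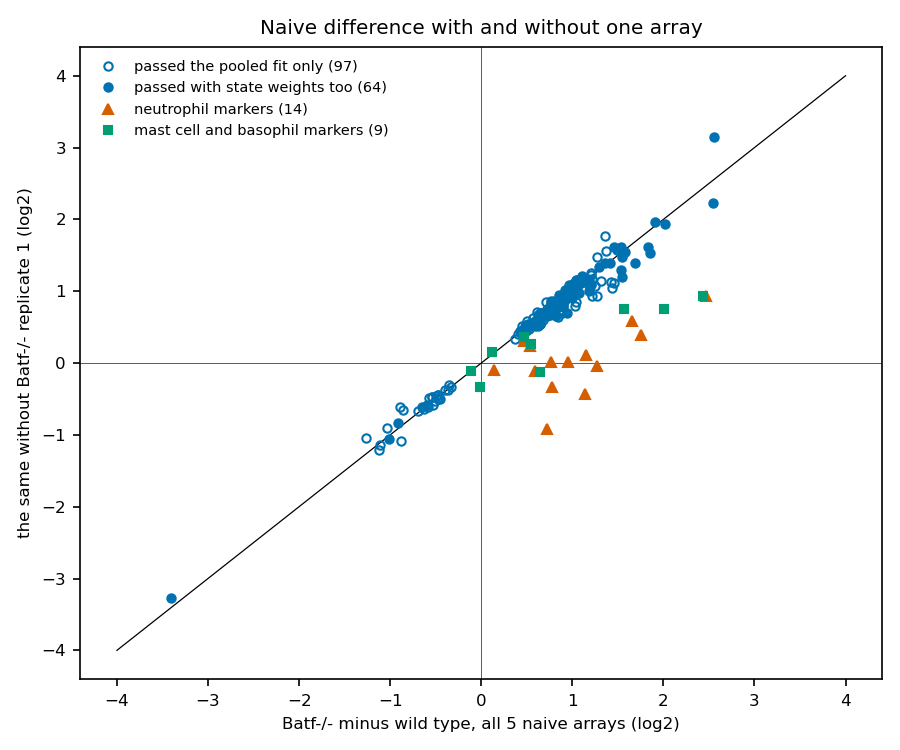
Log2 difference of Batf-/- minus wild type in naive cells with all 5 arrays (x axis) and without Batf-/- replicate 1 (y axis), for the 161 genes that passed, filled where they passed the state-weighted fit too, and for 14 neutrophil and 9 mast cell and basophil markers. The genes that passed lie close to the line of equality, while most neutrophil markers fall toward 0 without that array.

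Receptors for inflammatory chemokines were among the increases. Ccr1, a receptor for inflammatory chemokines such as Ccl3 and Ccl5, read 4.58 and 4.35 in wild type and 5.92, 5.83 and 5.89 in Batf-/- cells. The 3 Batf-/- arrays were close together and lay above both wild-type arrays, which were dim. The difference was 1.41 ± 0.11 (adjusted p = 6.59e-05, state-weighted adjusted p = 0.0013). Ccr2, the receptor for Ccl2 that guides cells to inflamed tissue, read 7.84 and 8.0 against 9.90, 8.84 and 9.59, with a difference of 1.53 ± 0.23 (adjusted p = 0.00739, state-weighted adjusted p = 0.0238). It was lowest of the Batf-/- arrays in replicate 2, yet above wild type there too, and 3 of its 4 probe sets passed. Monocyte and macrophage markers, among which Ccr2 is also known, had the same order of the Batf-/- arrays, with list means of 8.36, 6.83 and 7.33 against 6.90 and 6.95 in wild type, and their part in the Ccr2 signal was not tested. Itgb1, the integrin beta chain used by memory T cells, read 7.92 and 7.87 against 8.39, 8.32 and 8.45 (0.49 ± 0.09, adjusted p = 0.0296), did not pass with state weights (adjusted p = 0.195) and was at 0.19 as the mean of its 6 probe sets. These 3 were the members of 19 chemokine receptor and homing genes whose representative probe set passed in this fit, where the list median was 0.14 against 0.00 for all genes.

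Itgae, the integrin chain that holds T cells at epithelia by binding E-cadherin, pointed the other way. The probe set with the highest mean read 10.55 and 10.43 in wild type and 8.84, 9.79 and 9.48 in Batf-/-, without passing (-1.12, adjusted p = 0.0583). A further probe set of the gene did pass, at 9.76 and 9.70 against 7.98, 8.87 and 8.54 (-1.27 ± 0.21, adjusted p = 0.0111, state-weighted adjusted p = 0.0468). Both probe sets had every Batf-/- array below every wild-type array. A lesser probe set of Ccr9, the gut homing receptor, passed downward too (-0.91 ± 0.12, adjusted p = 0.00347, state-weighted adjusted p = 0.0272).

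S100a4, a calcium-binding protein abundant in effector and memory T cells and in myeloid cells, was among the most even increases. It read 9.09 and 9.21 in wild type and 10.45, 10.51 and 10.96 in Batf-/-. Its lowest Batf-/- array was replicate 1, the one with granulocyte RNA. The difference was 1.49 ± 0.14 or 2.80-fold (adjusted p = 0.000331, state-weighted adjusted p = 0.00253) and 1.58 without replicate 1.

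**Figure D3:**
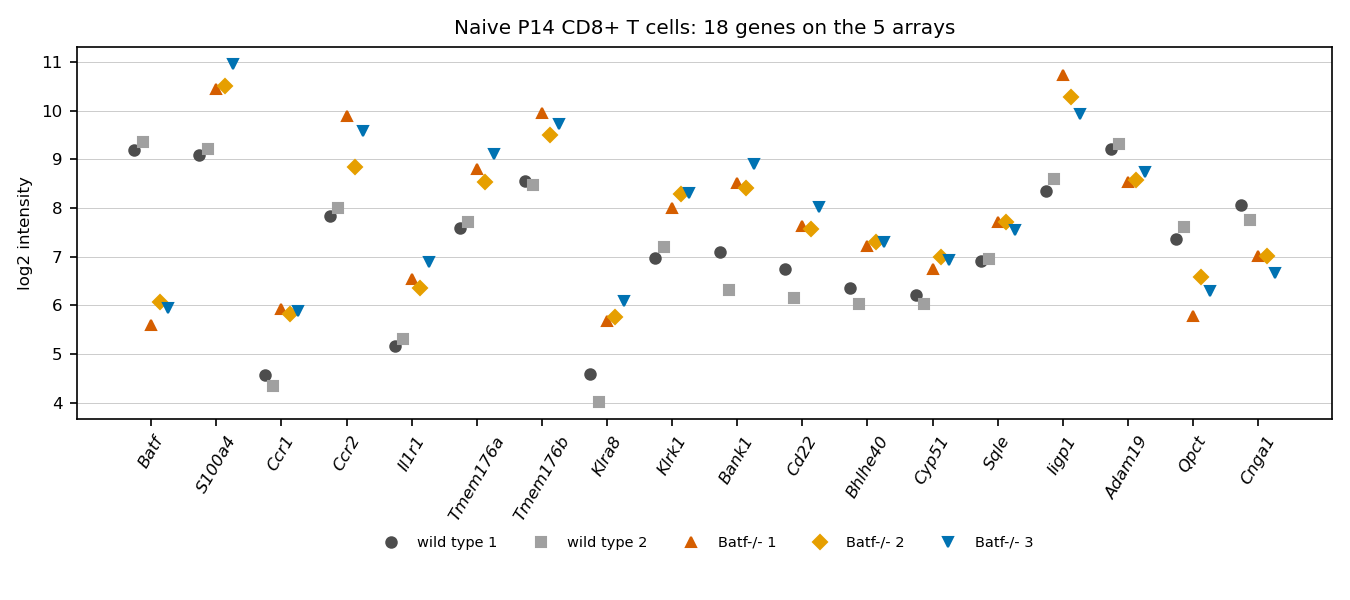
Log2 intensity of 18 genes on each of the 5 naive arrays, with grey symbols for the wild-type and coloured symbols for the Batf-/- arrays. Batf and the 3 genes at the right (Adam19, Qpct and Cnga1) are lower in all Batf-/- arrays, and the other 14 genes are higher in all of them.

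Of 18 genes that mark memory-phenotype and innate-like CD8 T cells 4 rose. Ifng, the cytokine interferon gamma, read 5.70 and 5.90 against 6.44, 6.66 and 6.54, with all Batf-/- arrays above wild type (0.75 ± 0.10, adjusted p = 0.00286, state-weighted adjusted p = 0.0219). Il18r1, a chain of the receptor for interleukin 18, read 9.72 and 10.04 against 10.52, 10.58 and 10.58 (0.68 ± 0.10, adjusted p = 0.00552, state-weighted adjusted p = 0.0306). Cd44, the hyaluronan receptor that is raised on memory T cells, read 9.57 and 9.72 against 10.36, 10.03 and 10.45 (0.64 ± 0.10, adjusted p = 0.0111, state-weighted adjusted p = 0.037), and stood at 0.34 over its 4 probe sets, which did not pass (adjusted p = 0.165). The chemokine gene Xcl1 (0.74 ± 0.15, adjusted p = 0.0459) lost its call with state weights (adjusted p = 0.195). Without Batf-/- replicate 1, 3 of the 18 passed.

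The other 14 members of that list did not pass. Eomes, the T-box factor of memory CD8 T cells, read 9.60 and 9.82 against 8.75, 9.99 and 10.49, and Tbx21 read 7.98 and 7.67 against 7.54, 8.32 and 8.06, with the groups overlapping for both. In replicates 2 and 3 both factors were above wild type, and without replicate 1 the differences were 0.53 for Eomes (adjusted p = 0.0978) and 0.37 for Tbx21 (adjusted p = 0.204). The receptor genes Cxcr3 and Il2rb overlapped likewise, and Eomes, Cxcr3, Il2rb and Ccl5 were all lowest in Batf-/- replicate 1. The list median was 0.26, and 0.39 without that array.

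Receptors of natural killer (NK) cells gave the most passed genes of any list in the pooled fit. With state weights they gave 3, against 4 for cholesterol synthesis. These lectin-like receptors of the NK gene complex on chromosome 6 are carried by NK cells and by part of the memory-phenotype CD8 T cells. Of 20 measured members 6 rose. Klra8, an activating Ly49 receptor, read 4.59 and 4.02 against 5.67, 5.76 and 6.08 (1.53 ± 0.17, adjusted p = 0.0011, state-weighted adjusted p = 0.00634). Klrk1, the activating receptor NKG2D, read 6.98 and 7.20 against 7.99, 8.29 and 8.31 (1.11 ± 0.15, adjusted p = 0.00367, state-weighted adjusted p = 0.0331). In both cases the 3 Batf-/- arrays were close together and clear of wild type. Klra7 (1.85 ± 0.30, adjusted p = 0.0112) had its highest value in Batf-/- replicate 1 and stood at 0.93 over its 2 probe sets. Klre1 (1.37 ± 0.22) was highest in replicate 2, Klrb1b (1.44 ± 0.28) in replicate 1 and Klrb1f (0.85 ± 0.12) in replicate 1, and these 3 missed the threshold with state weights (adjusted p = 0.0554, 0.0663 and 0.0503).

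Among the members that did not pass, Klrc1, the NKG2A chain, was higher in all Batf-/- arrays (0.97, adjusted p = 0.0612) and passed without Batf-/- replicate 1 (adjusted p = 0.00342), where 7 of the 20 did. Klrd1, its partner CD94, was lower in all of them (-0.38, adjusted p = 0.289). The wild-type means of Klra7, Klra8 and Klrb1b were dim, so their differences are lower bounds. The Ly49 genes are near-identical copies, and the probe sets of Klra7 and Klra8 are of a type that can match several of them, so the signal cannot be assigned to a single Ly49 gene.

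Markers of the NK lineage were measured beside the receptors. Ncr1, an NK receptor that T cells rarely carry, read 4.84 and 5.04 against 7.13, 5.22 and 5.67, and Tyrobp, a signalling adaptor of NK and myeloid cells, read 9.20 and 9.14 against 10.95, 9.23 and 10.01. Of 8 measured NK cell markers 2 passed, Klre1 and Klra8, which also belong to the receptor list. The mean of the 8 lay at 7.27 and 7.15 in wild type and at 8.22, 7.96 and 8.10 in Batf-/- arrays, above wild type in all 3. The part of NK cells in the receptor signal was not tested.

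Cytotoxic genes as a group did not pass. An unadjusted p below 0.05 was reached by 4 of 18 measured members, and by 2381 of all 18194 genes. Of the 18, 0 passed in limma, 0 passed with state weights and 1 passed without Batf-/- replicate 1. That gene was granzyme A, Gzma, at 10.76 and 10.80 against 11.49, 12.52 and 11.76 (1.14, adjusted p = 0.0794, and 0.0318 without replicate 1). Gzmb read 7.94 and 7.61 against 8.02, 8.73 and 8.17, and perforin, Prf1, read 8.76 and 8.55 against 8.66, 8.94 and 9.14. Both granzymes were highest in Batf-/- replicate 2 and perforin in replicate 3.

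Of 12 genes shared by type 17 cells and innate-like T cells 3 rose and 9 did not pass. Il1r1, the receptor for interleukin 1 that marks cells able to make interleukin 17, read 5.17 and 5.30 against 6.55, 6.35 and 6.89 (1.36 ± 0.13, adjusted p = 0.000331, state-weighted adjusted p = 0.00253), and 0.73 over its 2 probe sets. Tmem176b read 8.55 and 8.48 against 9.96, 9.50 and 9.72 (1.21 ± 0.11, adjusted p = 0.000289, state-weighted adjusted p = 0.0015). Its neighbour Tmem176a read 7.59 and 7.71 against 8.81, 8.53 and 9.11 (1.17 ± 0.15, adjusted p = 0.00301, state-weighted adjusted p = 0.0198), and all 3 of its probe sets passed. Both code for ion channel-like membrane proteins found in type 17 T cells and in dendritic cells, and both kept their call in every fit that left out an array.

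The starts of these paired genes lie next to each other on opposite strands of chromosome 6. Because they moved together, a RefSeq promoter window of each (250 bases before to 50 after the start, GRCm38.p6) is shown. Tmem176a has 2 such windows and Tmem176b has 3, and the pair with the largest overlap was chosen. They lie at chr6:48841406-48841705 on the plus strand for Tmem176a and at chr6:48841325-48841624 on the minus strand for Tmem176b. Capitals mark the 219 bases that the windows share, read from opposite strands.
Tmem176a: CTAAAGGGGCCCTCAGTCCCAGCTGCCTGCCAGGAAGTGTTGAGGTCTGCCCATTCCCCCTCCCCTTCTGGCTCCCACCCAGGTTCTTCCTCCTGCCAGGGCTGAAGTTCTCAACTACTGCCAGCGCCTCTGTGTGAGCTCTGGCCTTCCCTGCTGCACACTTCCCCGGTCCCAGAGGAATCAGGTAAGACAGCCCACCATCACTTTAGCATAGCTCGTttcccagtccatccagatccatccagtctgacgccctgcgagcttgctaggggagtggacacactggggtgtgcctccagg
Tmem176b: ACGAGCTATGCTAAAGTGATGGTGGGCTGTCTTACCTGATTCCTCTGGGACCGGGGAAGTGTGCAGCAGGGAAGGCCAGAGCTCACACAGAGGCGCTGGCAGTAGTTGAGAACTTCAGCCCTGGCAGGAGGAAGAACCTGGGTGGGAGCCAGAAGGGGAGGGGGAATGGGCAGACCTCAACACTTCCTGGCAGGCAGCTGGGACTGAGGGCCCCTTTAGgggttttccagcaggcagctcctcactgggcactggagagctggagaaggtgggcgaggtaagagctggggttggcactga
The capitals take up most of each window shown, so that for this pair of starts, chosen for its overlap, most of the upstream sequence is the same DNA.

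The other members of the type 17 list differed between the Batf-/- arrays. Ccr6 read 5.90 and 6.16 against 6.30, 7.46 and 8.23 (1.30, adjusted p = 0.15), and Maf, a transcription factor of interleukin-producing T cells, read 7.66 and 7.83 against 8.04, 8.79 and 9.42 (1.0, adjusted p = 0.124). Both passed without Batf-/- replicate 1, where 5 of the 12 did (adjusted p = 0.00342 and 0.00385). Cd163l1, a scavenger receptor of gamma delta T cells, read 8.62 and 9.55 against 8.28, 9.59 and 10.51, so that replicate 3 was the highest of all 5 for Ccr6, Maf and Cd163l1. The cytokine gene Il17a overlapped at 3.97 and 4.34 against 3.98, 4.66 and 4.94. Of 5 measured gamma delta and other innate T cell markers, which are all in the type 17 list too, 0 passed in limma. With state weights 0 passed, and 1, Maf, passed without replicate 1. An unadjusted p below 0.05 was reached by 3 of the 5, and by 2381 of all 18194 genes. The mean of the 5 was 6.82 and 6.94 in wild type and 6.80, 7.38 and 7.90 in Batf-/-. The part of such cells in the signal was not tested.

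Among 18 effector transcription factors 3 rose and 1 fell. Bhlhe40, a factor that supports cytokine production in T cells, read 6.35 and 6.03 against 7.21, 7.30 and 7.31, with the Batf-/- arrays nearly identical (1.08 ± 0.13, adjusted p = 0.00226, state-weighted adjusted p = 0.021). Xbp1, the factor of the secretory pathway, read 10.50 and 10.53 against 11.67, 11.14 and 11.20 (0.82 ± 0.13, adjusted p = 0.00873, state-weighted adjusted p = 0.0331). Irf4, with which Batf binds DNA, read 6.60 and 6.35 against 7.39, 6.82 and 7.47 (0.75 ± 0.16, adjusted p = 0.0441), a call that was lost with state weights (adjusted p = 0.123). The other probe set of Irf4 was at -0.04 (adjusted p = 0.939), and the mean of both at 0.36 did not pass (adjusted p = 0.283). Myc, the driver of growth after activation, read 10.36 and 10.31 against 9.97, 9.88 and 9.80 (-0.45 ± 0.09, adjusted p = 0.0394, state-weighted adjusted p = 0.233). The list median was 0.05, and Xbp1 and Irf4 are high in plasma cells as well. Prdm1 (0.51), Id2 (0.62) and Ikzf3 (0.49) did not pass, although a further probe set of Id2 did (0.54 ± 0.11, adjusted p = 0.0389) and Ikzf3 passed without Batf-/- replicate 1 (adjusted p = 0.00183).

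Of 19 measured genes of cholesterol synthesis 4 rose and 15 did not pass. The 4 passed with state weights too, and 5 genes passed without Batf-/- replicate 1. An unadjusted p below 0.05 was reached by 12 of the 19, and by 2381 of all 18194 genes. In the order of the pathway, Idi1, an isomerase of the isoprenoid units, read 7.83 and 7.89 against 8.49, 8.50 and 8.41 (0.61 ± 0.08, adjusted p = 0.00249). Fdps, which joins these units to farnesyl diphosphate, read 8.32 and 8.33 against 9.16, 8.90 and 8.86 (0.64 ± 0.09, adjusted p = 0.00665). Sqle, the squalene epoxidase, read 6.91 and 6.96 against 7.71, 7.72 and 7.54 (0.72 ± 0.09, adjusted p = 0.00276).

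The fourth was Cyp51, the lanosterol demethylase, at 6.22 and 6.03 against 6.75, 7.0 and 6.94 (0.77 ± 0.10, adjusted p = 0.00249). State-weighted adjusted p-values of the 4 lay between 0.0179 and 0.034. Averaging every probe set of a gene gave less and ended the call for Cyp51 (0.39, adjusted p = 0.0689) and Fdps (0.30, adjusted p = 0.077). Of the 19 genes 13 had all Batf-/- arrays above wild type and 0 had all below, against 11.8% and 12.7% of all genes, and the list median was 0.26. Hmgcs1, at the entry of the pathway, was at 0.26 (adjusted p = 0.28), and Insig1, which holds the sterol sensor back, at 0.33 (adjusted p = 0.137). Fatty acid synthesis genes, under the same family of regulators, gave 0 of 15 passed in limma and 0 with state weights. Without replicate 1, 1 was higher and 1 lower. Their median with all arrays was 0.09, and 5 of the 15 had an unadjusted p below 0.05, against 2381 of all 18194 genes.

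Sterol genes are known to be driven by SREBP together with NF-Y, which binds CCAAT boxes, so the promoter windows of Cyp51 (chr5:4104648-4104947, minus strand) and Idi1 (chr13:8885356-8885655, plus strand; RefSeq, GRCm38.p6) are shown with CCAAT or its complement ATTGG in capitals. No windows of Sqle and Fdps are shown.
Cyp51: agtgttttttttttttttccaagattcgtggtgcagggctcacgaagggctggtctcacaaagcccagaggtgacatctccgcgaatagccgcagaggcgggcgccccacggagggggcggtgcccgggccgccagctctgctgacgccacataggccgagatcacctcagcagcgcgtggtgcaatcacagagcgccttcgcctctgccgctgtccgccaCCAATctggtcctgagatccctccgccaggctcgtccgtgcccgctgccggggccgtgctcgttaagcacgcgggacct
Idi1: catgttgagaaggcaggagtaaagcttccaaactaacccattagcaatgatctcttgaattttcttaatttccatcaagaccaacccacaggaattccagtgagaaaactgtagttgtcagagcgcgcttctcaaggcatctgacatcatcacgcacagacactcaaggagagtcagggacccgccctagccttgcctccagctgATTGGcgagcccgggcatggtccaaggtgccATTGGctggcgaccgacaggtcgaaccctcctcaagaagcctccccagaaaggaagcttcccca
Cyp51 held 1 such box and Idi1 held 2. CCAAT on either strand was found in 42% of 14453 genes tested with a window, in 30.9% of 97 genes that rose and in 39.1% of 23 that fell, so the box is common and these matches are a description. The AP-1 motif TGANTCA, the kind of site that Batf and Jun bind, was found on either strand in 7.54% of the 14453, in 9 of the 97 that rose (9.28%) and in 4 of the 23 that fell (17.4%).

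Interferon-induced GTPases, which attack the vacuoles of intracellular pathogens, were higher in part. Of 8 measured genes 2 rose. Iigp1 read 8.35 and 8.60 against 10.73, 10.27 and 9.93 (1.83 ± 0.26 or 3.56-fold, adjusted p = 0.00552, state-weighted adjusted p = 0.0432). Igtp read 11.51 and 11.62 against 12.30, 12.15 and 12.01 (0.59 ± 0.11, adjusted p = 0.0215), and missed the threshold with state weights (adjusted p = 0.127). For 7 of the 8 genes all Batf-/- arrays lay above wild type, against 11.8% of all genes, and the list median was 0.52. Type I interferon response genes did not share this: 0 of 21 passed in limma, 0 passed with state weights or without replicate 1, and the median was -0.13. An unadjusted p below 0.05 was reached by 3 of the 21, and by 2381 of all 18194 genes.

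Genes of the quiescent T cell were slightly lower as a list, with the gap smaller once Batf-/- replicate 1 was set aside. Of 18 naive and memory T cell genes Cd55, a complement regulator, was the only one to pass, at 8.62 and 8.49 against 8.12, 8.01 and 7.95 (-0.53 ± 0.11, adjusted p = 0.0394, state-weighted adjusted p = 0.236). Ccr7, the lymph node homing receptor, read 11.36 and 11.30 against 10.90, 11.32 and 11.20, and Lef1 read 12.15 and 11.98 against 11.55, 12.19 and 11.79. The differences of all 18 were below 0, and the list median was -0.21 with all arrays and -0.10 without replicate 1. Id3, a factor of naive and memory T cells, was the lowest of the list at 9.81 and 9.70 against 7.62, 8.98 and 9.32 (-1.11, adjusted p = 0.202). Of 17 genes of the T cell receptor complex 0 passed in limma, and 0 with state weights or without replicate 1. An unadjusted p below 0.05 was reached by 2 of the 17, and by 2381 of all 18194 genes. The median of the 17 was -0.19 and became -0.01 without replicate 1.

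Single members of other lists passed. Among 15 inhibitory receptors and ligands Cd200r1 (0.58 ± 0.10, adjusted p = 0.0151) and Cd274, the ligand PD-L1 (0.37 ± 0.08, adjusted p = 0.0419), rose, and among 16 costimulatory genes Tnfsf8, the CD30 ligand (0.48 ± 0.10, adjusted p = 0.0495), did. None of these 3 passed with state weights (adjusted p = 0.0902, 0.216 and 0.221). Among 16 glycolysis genes Aldoc, an aldolase, read 4.78 and 5.19 against 5.81, 5.85 and 6.43 (1.04 ± 0.16, adjusted p = 0.00776, state-weighted adjusted p = 0.022). In 12 of the 24 program lists, with 223 genes, 0 passed in limma, 0 passed with state weights and 4 without Batf-/- replicate 1. An unadjusted p below 0.05 was found for 37 of the 223, and for 2381 of all 18194 genes. Those 12 lists included T cell receptor early response genes, the unfolded protein response, ribosome biogenesis, DNA replication and mitosis. The mean of the mitosis genes was 7.28 and 7.64 in wild type and 8.54, 7.01 and 7.42 in Batf-/-, and was thus highest in Batf-/- replicate 1 and lowest in replicate 2.

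Outside the lists, the largest increases were in genes of varied function. Abi3bp, a matrix-binding protein, read 3.11 and 3.56 against 4.72, 6.25 and 6.73 (2.56 ± 0.39, adjusted p = 0.00754, state-weighted adjusted p = 0.0179). Apol11b, of the apolipoprotein L family, read 2.60 and 3.17 against 6.06, 4.23 and 6.00 (2.55 ± 0.41, adjusted p = 0.0111, state-weighted adjusted p = 0.0272). The wild-type means of both were dim, and within the Batf-/- group Abi3bp was lowest in replicate 1 and Apol11b in replicate 2. Hepacam2 read 5.08 and 4.87 against 6.63, 6.29 and 6.74 (1.58 ± 0.15, adjusted p = 0.000331, state-weighted adjusted p = 0.00343) and was even across the Batf-/- arrays.

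Rnf157, a ubiquitin ligase (1.54 ± 0.23), and Cyp4f18, a lipid hydroxylase of leukocytes (1.54 ± 0.24, wild type dim), passed in both fits. App, the amyloid precursor protein (1.46 ± 0.30, adjusted p = 0.0408), was highest in Batf-/- replicate 1 and did not pass with state weights (adjusted p = 0.163). Averaged across each gene's probe sets, the values were 0.66 for Rnf157, 0.87 for Cyp4f18 and 0.69 for App. Emp1, a membrane protein of the claudin superfamily, read 4.33 and 3.94 against 5.19, 5.32 and 5.23 (1.11 ± 0.12, adjusted p = 0.000857, state-weighted adjusted p = 0.00572).

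On representative probe sets the decreases beside Batf were fewer and smaller. Qpct, a glutaminyl cyclase, read 7.36 and 7.61 against 5.79, 6.58 and 6.29 (-1.26 ± 0.21, adjusted p = 0.0128, state-weighted adjusted p = 0.0653). Cnga1, a subunit of a cyclic nucleotide-gated channel, read 8.06 and 7.75 against 7.01, 7.02 and 6.66 (-1.01 ± 0.15, adjusted p = 0.00698, state-weighted adjusted p = 0.0459). Adam19, a membrane-bound protease, read 9.21 and 9.32 against 8.53, 8.57 and 8.74 (-0.65 ± 0.08, adjusted p = 0.00276, state-weighted adjusted p = 0.0198). Adam19 had the more even values, passed with both of its probe sets and kept its call in every fit that left out an array. Among representative probe sets the 5 decreases that passed with state weights were Batf, Cnga1, Adi1, Adam19 and Ap4s1. Over all probe sets 14 passed downward with state weights, including lesser ones of Igf2bp3 (-1.78) and G2e3 (-1.48).

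Other decreases among the largest of the representative probe sets did not pass with state weights. They were Gpr34 (-1.12), a lysophospholipid receptor, Ltk (-1.03), a receptor tyrosine kinase, Zfp827 (-0.89), Trbv13-2 (-0.88), a variable segment of the T cell receptor beta chain, Akap5 (-0.86), Clps (-0.69), Lig4 (-0.63), the ligase of DNA end joining, Mex3b (-0.57) and Gramd1a (-0.54). Clps, a pancreatic colipase, read 5.11 and 5.67 against 4.64, 4.73 and 4.71 and was highest in wild-type replicate 2, the array with pancreatic enzyme RNA. The part of that RNA in the call was not tested. Trbv13-2 read 6.92 and 6.61 against 6.31, 5.82 and 5.52.

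Of 13 measured B cell markers 4 rose, and 7 had every Batf-/- array above wild type, against 11.8% of all genes. Bank1, a scaffold of B cell receptor signalling, read 7.10 and 6.31 against 8.52, 8.42 and 8.91 (1.91 ± 0.21 or 3.76-fold, adjusted p = 0.000857, state-weighted adjusted p = 0.00382). Cd22, an inhibitory coreceptor of B cells, read 6.75 and 6.15 against 7.64, 7.57 and 8.02 (1.29 ± 0.18, adjusted p = 0.00379, state-weighted adjusted p = 0.0206). Wild-type replicate 2 was the lowest array for both. Cr2 (0.90) and Ebf1 (0.68) were dim in wild type and did not pass with state weights on their representative probe sets. Of the 5 probe sets of Ebf1 3 passed, and 1 of them did so with state weights (0.99 ± 0.15, adjusted p = 0.00754, state-weighted adjusted p = 0.034), with both groups dim.

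The B cell markers Ms4a1, Cd79b and Pax5 did not pass, although the differences of all 13 markers were above 0. The list median was 0.61, and 0.60 without Batf-/- replicate 1. An unadjusted p below 0.05 was reached by 9 of the 13, and by 2381 of all 18194 genes. Ms4a1, which codes for CD20, read 10.14 and 9.21 against 10.33, 10.38 and 11.16 (0.95, adjusted p = 0.191), so that B cell RNA was present in wild-type preparations too. Cd79b read 9.74 and 9.30 against 9.68, 9.65 and 10.32, and Pax5, the factor of B cell identity, read 5.23 and 5.03 against 5.10, 5.13 and 5.30, with overlapping groups for both. The list mean was 6.96 and 6.54 in wild type and 7.29, 7.26 and 7.68 in Batf-/-, and 2 of the 13 were dim on all 5 arrays. The part of B cells in the increases of Bank1, Cd22 and the antibody genes was not tested.

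Of 9 plasma cell markers 4 rose. Igha, the heavy chain of IgA, read 11.39 and 11.57 against 13.27, 12.39 and 12.44 (1.22 ± 0.21, adjusted p = 0.0189, state-weighted adjusted p = 0.0645), and Tnfrsf17, the survival receptor BCMA, read 3.90 and 4.55 against 5.30, 5.23 and 5.75 (1.20 ± 0.23, adjusted p = 0.0331, state-weighted adjusted p = 0.17). The others were Xbp1 and Irf4. The joining chain, Jchain, read 12.39 and 12.78 against 13.33, 13.01 and 13.20 (0.60, adjusted p = 0.0663). Of the 9 markers 8 had every Batf-/- array above wild type, against 11.8% of all genes. The list mean was 8.0 and 8.04 against 8.76, 8.48 and 8.87.

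The light chain segment Igkv6-14 (2.02 ± 0.25, adjusted p = 0.00249, state-weighted adjusted p = 0.00565) and a further kappa segment (1.69 ± 0.26, adjusted p = 0.00865, state-weighted adjusted p = 0.0271) rose as well. Igkv6-14 read 5.56 and 5.40 against 7.67, 6.78 and 8.06, and the further one, whose mean over 3 probe sets was 0.63, read 8.09 and 8.84 against 10.77, 9.83 and 9.88. In MHC class II and antigen presentation, 2 of 9 genes rose, H2-DMb2 (0.94 ± 0.16) and H2-DMa (0.62 ± 0.11), chains of the peptide loading factor. Neither representative probe set passed with state weights (adjusted p = 0.0571 and 0.0884). Lesser probe sets of H2-DMa (0.62 ± 0.08) and H2-Aa (0.84 ± 0.12) passed in both fits (state-weighted adjusted p = 0.0177 and 0.044). The differences of all 9 genes were above 0, as were those of 9103 of all 18194. Every Batf-/- array lay above wild type for 5 of the 9, against 11.8% of all genes.

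The markers of other cell types mostly followed Batf-/- replicate 1. The mean of 14 neutrophil markers was 5.32 and 5.07 in wild type and 8.19, 4.75 and 5.73 in Batf-/-, with 0 passed in limma, 4 at an unadjusted p below 0.05 and a median of 0.86 that fell to 0.02 without replicate 1. The mean of 9 mast cell and basophil markers was 4.41 and 4.58 against 6.47, 4.64 and 4.94, and that of 17 monocyte and macrophage markers 6.90 and 6.95 against 8.36, 6.83 and 7.33. Alas2, the haem synthesis enzyme of red cell precursors, was the 1 of 9 erythroid markers to pass (1.21 ± 0.24, adjusted p = 0.038, state-weighted adjusted p = 0.0861), at 5.41 and 6.35 against 7.07, 6.69 and 7.51. In 9 of the 14 cell type lists, with 100 genes, 0 passed in limma, 0 passed with state weights and 4 without replicate 1. An unadjusted p below 0.05 was found for 28 of the 100, and for 2381 of all 18194 genes.

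Chromosome 12, which carries Batf, held a larger share of passed probe sets than the rest of the genome. There 31 of 1284 probe sets passed (2.41%), against 236 of 33674 elsewhere (0.701%), and with state weights it was 9 of 1284 (0.701%) against 81 (0.241%). At day 3 it was 24 (1.87%) against 336 (0.998%). Of the 31, 15 were higher and 16 lower, and they belonged to 26 genes, of which the antibody genes Igha and Ighm account for 3 probe sets. The largest decrease there after Batf was in Adi1, an enzyme of methionine salvage, of which 1 probe set read 8.64 and 8.74 against 6.46, 6.10 and 6.37 (-2.38 ± 0.11, adjusted p = 2.4e-07), and passed on the naive arrays alone too (adjusted p = 0.0245).

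Probe sets of the same gene did not always move together on that chromosome. The other probe sets of Adi1 read -0.91 ± 0.10 (adjusted p = 0.000857) and 0.83 ± 0.13 (adjusted p = 0.00747), and Adi1 was the 1 gene with probe sets passed in both directions. G2e3, a ubiquitin ligase, fell by 1.48 on the log2 scale (adjusted p = 0.000331) on a probe set that is not its brightest. Daam1, a formin that builds actin filaments, rose by 1.72 (adjusted p = 0.000133), from a dim wild-type level and likewise on a lesser probe set.

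Among the representative probe sets, Egln3, an oxygen-sensing hydroxylase, read 6.03 and 6.17 against 7.50, 7.18 and 7.22 (1.20 ± 0.12, adjusted p = 0.000331, state-weighted adjusted p = 0.00382). Pik3cg, the catalytic subunit of phosphoinositide 3-kinase gamma, read 7.73 and 7.80 against 8.49, 8.81 and 8.76 (0.92 ± 0.10, adjusted p = 0.0011, state-weighted adjusted p = 0.00749), but stood at 0.37 over its 2 probe sets. Vcpkmt, a lysine methyltransferase, read 7.93 and 7.94 against 8.58, 8.51 and 8.64 (0.64 ± 0.09, adjusted p = 0.00613, state-weighted adjusted p = 0.0571), and Ap4s1, a subunit of the AP-4 adaptor of vesicle transport, read 9.73 and 9.65 against 9.06, 9.09 and 9.12 (-0.60 ± 0.08, adjusted p = 0.00494, state-weighted adjusted p = 0.0468). The groups were well apart for all 4. Pqlc3 (0.49), Churc1 (-0.54), Fntb (-0.51) and Coch (-0.59, both groups dim) passed in the pooled fit and not with state weights.

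**Figure D4:**
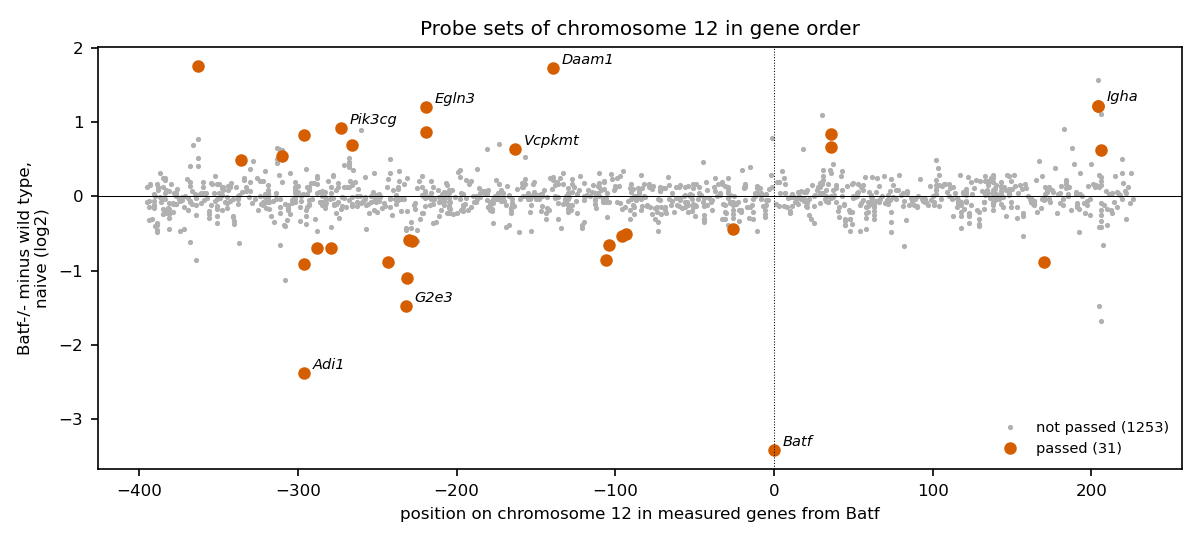
Log2 difference in naive cells of each of the 1284 probe sets on chromosome 12, placed by the order of measured genes counted from Batf, with the 31 that passed in orange. Probe sets that passed are found on both sides of 0, and at positions before and after Batf.

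At day 3 most of the probe sets that passed between the same genotypes were others. The 2 comparisons share no arrays, but share the pooled estimate of the spread. Of the 267 probe sets that passed in naive cells and the 360 at day 3 (1.03%), 21 passed in both, 7.87% of the former and 5.83% of the latter. Of these 17 had the same direction and 7 lay on chromosome 12. Besides Batf (-2.88 at day 3), Ccr2 was higher in both states (1.53 naive and 1.26 at day 3, adjusted p = 0.00377), as was Mid1, a ubiquitin ligase of microtubules (1.22 and 1.88, adjusted p = 8.6e-05). Adi1, Daam1 and Vcpkmt kept their directions as well (-0.55, 1.10 and 1.01 at day 3 for the probe sets at -0.91, 1.72 and 0.64 in naive cells), and so did the second probe set of Itgae (-1.18 after -1.27).

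The difference between the states was itself tested, as the naive effect minus the day 3 effect, and 149 probe sets passed (0.426%). Of the 267 naive calls 77 were among them, 62 of these higher and 15 lower in naive Batf-/- cells. Among genes 100 passed (0.55%), including 51 of the 161, and 31 of the 161 passed the same test with state weights. The count of 149 became 279 or 456 when naive Batf-/- replicate 1 or 2 was dropped. It fell to 84, 73 or 81 when a wild-type array of day 3 was dropped (replicates 1 to 3 in turn), and to 73, 80 or 82 for the Batf-/- arrays of day 3 (replicates 2 to 4 in turn). Probe sets of Klrk1, Ttc39c, Emp1 and Setdb1 passed in both states in opposite directions. Klrk1 was 1.11 higher in naive and 1.22 lower (-1.22 ± 0.12, adjusted p = 0.000188) in day 3 Batf-/- cells, a difference of 2.32 ± 0.19 (adjusted p = 0.00038, state-weighted adjusted p = 0.00113). Its wild-type mean went from 7.09 in naive cells to 9.04 at day 3, whereas the Batf-/- mean was 8.20 and 7.82.

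Emp1 (1.11 naive, -0.50 at day 3) and Ttc39c (0.93 and -0.81) had the same signs, with differences of 1.61 ± 0.15 (adjusted p = 0.000385) and 1.75 ± 0.18 (adjusted p = 0.000677). As the mean of all its probe sets the naive effect was 0.60 for Emp1 and 0.38 for Ttc39c. For other genes the day 3 effect was close to 0. S100a4 was at 9.15 in wild-type and 10.64 in Batf-/- naive cells but at 10.09 and 10.06 at day 3, and Bhlhe40 was at 6.19 and 7.27 in naive cells but at 11.32 and 11.31 at day 3. The difference between the states passed for the 4 sterol enzymes too, with Sqle at 6.94 and 7.65 in naive cells and at 10.66 and 10.74 at day 3, but not with state weights (adjusted p between 0.0577 and 0.0948). The naive Batf-/- level lay between the wild-type naive and day 3 levels for Bhlhe40 and Sqle and above both for S100a4.

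Receptors and marker genes were also near 0 at day 3. Ccr1 was at 4.47 and 5.88 in naive cells and at 3.15 and 3.11 at day 3, and the difference of 1.46 ± 0.14 passed (adjusted p = 0.000385, state-weighted adjusted p = 0.00153). Tmem176b was at 8.51 and 9.73 in naive cells and at 6.75 and 6.66 at day 3 (1.30 ± 0.14, adjusted p = 0.000974, state-weighted adjusted p = 0.00153). Among B cell genes Bank1 was at 6.70 and 8.62 in naive cells and at 5.24 and 5.30 at day 3. Both Ccr1 and Klra8 were dim in both genotypes at day 3. For genes whose level was dim at day 3 the effect there was read near background and may be understated. An effect can still pass at such levels, as a lesser probe set of Ccr2 did at day 3 (3.29 and 4.28, adjusted p = 0.0154).

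**Figure D5:**
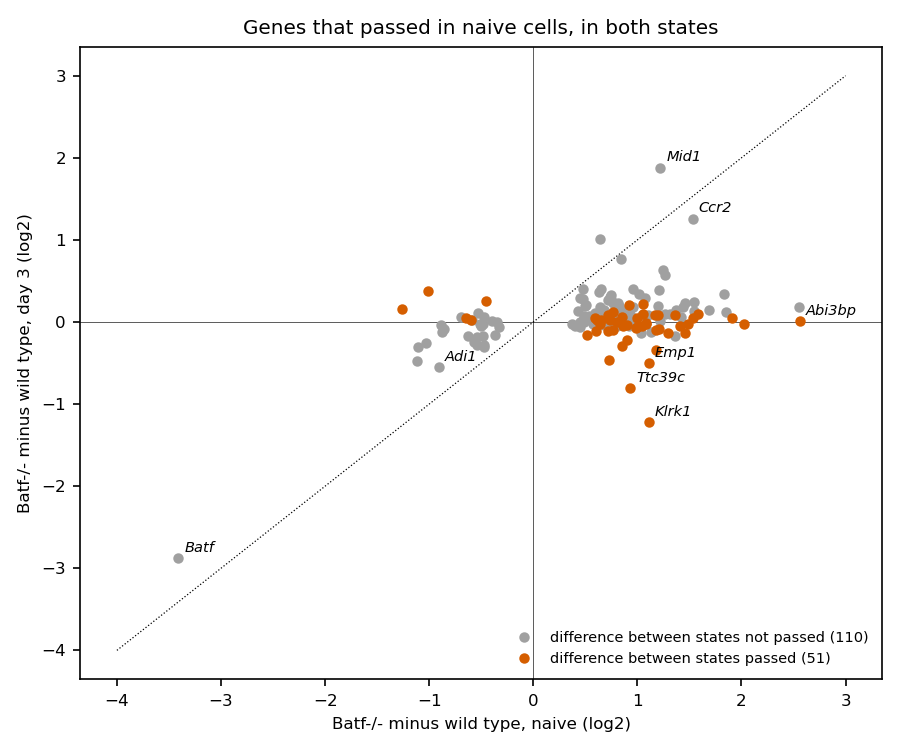
Log2 difference of Batf-/- minus wild type in naive cells (x axis) and at day 3 (y axis) for the 161 genes that passed in naive cells, in orange for the 51 whose difference between the states passed. Most genes lie near 0 on the y axis, Batf, Mid1 and Ccr2 lie near the dotted line of equal effects, and Klrk1, Ttc39c and Emp1 lie on opposite sides of 0 in the 2 states.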

How the data were processed

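RNA of P14 CD8+ T cells was measured on 13 mouse expression arrays, 5 of them naive. The deposited table held linear intensity values, 1 column per array, which had been summarised by RMA per the submitters' processing notes, with the version not given in the sources used here. RMA includes quantile normalization, so shifts shared by most genes cannot be seen. Values were taken to log2, and 34958 probe sets with 1 gene symbol were tested, leaving out 932 with several symbols and 9211 with none. Limma 3.58.1 in R 4.3.3 fitted 4 group means over all 13 arrays, with Benjamini-Hochberg adjustment. The scripts were tested on simulated data.

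The members and lists were chosen with earlier results of these data known. Named were Batf, the 14 largest increases and 14 largest decreases that passed with the higher group not dim, up to 6 passed members per list, genes that passed on chromosome 12, and up to 6 genes per direction that differed from day 3. Genes outside this rule were named as list members or after their values were seen. The number of arrays limits the precision.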

Additional observations from a re-analysis of the deposited data

Results flagged for a closer look

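The results here were marked because the Batf-/- effect differed between naive and day 3 cells by a test of the difference itself, which 149 probe sets passed. Values are the naive effect minus the day 3 effect (log2). It was positive for Abi3bp (2.55), Klrk1 (2.32), Igkv6-14 (2.05), Bank1 (1.86), Ttc39c (1.75), Emp1 (1.61), S100a4 (1.51), Hepacam2 (1.48), Klra8 (1.48), Ccr1 (1.46), Cd22 (1.42), Tmem176b (1.30), Il1r1 (1.28), Egln3 (1.11), Bhlhe40 (1.09), Aldoc (1.09), Tmem176a (1.08), Pik3cg (0.71), Fdps (0.68), Cyp51 (0.65), Sqle (0.63) and Idi1 (0.58). It was negative for Qpct (-1.43), Cnga1 (-1.39), Adam19 (-0.70), Myc (-0.70) and Ap4s1 (-0.63). Abi3bp, Igkv6-14, Hepacam2, Klra8, Ccr1 and Qpct were dim in both genotypes at day 3, so an effect there may be understated for them. With state weights the test was missed for Qpct (adjusted p = 0.0707), Ap4s1 (adjusted p = 0.0733), Tmem176a (adjusted p = 0.0616), Myc (adjusted p = 0.0571), Pik3cg (adjusted p = 0.0707) and the 4 sterol enzymes.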

How the results depend on the processing

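The naive count of 267 became 2 with the 5 naive arrays alone, 4 with those arrays without Batf-/- replicate 1, 90 with state weights, 163 with state weights and no Batf-/- replicate 1 (chosen after seeing the data), 634 with a weight for each array and 83 with at least a 2-fold change. Leaving out 1 array gave 143 to 1123. The count of 149 for the difference between states became 78 with state weights, 553 with a weight for each array, 232 with log2(value + 16) and 77 with at least a 2-fold change, and 73 to 456 when 1 array was left out. With the replicate number as a block the counts were 122 and 47. The labels do not say that a number marks a pair, and deviations of same-numbered naive arrays correlated at -0.21 and -0.24, so the numbers were not taken as pairs. No effect of the 73 named genes changed sign under the alternatives run, of which the one without dim probe sets covered 58. All 73 had no overlap between the groups, so leaving out an array or changing the weights could not have reversed a sign. Calls were lost for 72 with the naive arrays alone, 35 with state weights and 32 with the replicate block. Dropping naive Batf-/- replicate 1, 2 or 3 lost 12, 0 or 21 in turn, and dropping a day 3 array lost 12 to 22. With the mean of a gene's probe sets 16 were lost (App, Zfp827, Akap5, Clps, Cd55, Cd44, Klrb1b, Irf4, Cd200r1, Itgb1, Cyp51, Fdps, Aldoc, Pik3cg, Churc1 and a kappa segment). Causes of these shifts were not tested. Probe sets near background limit what dim genes can show.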

Other observations

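Probe sets that are not the brightest of their gene gave further calls, named here after their values were seen. Igf2bp3, an RNA-binding protein of fetal tissues, read 5.60 and 5.88 in wild type and 4.01, 4.08 and 3.80 in naive Batf-/- cells (-1.78 ± 0.12, adjusted p = 1.35e-05 in limma, state-weighted adjusted p = 0.000126), and a further probe set fell as well (-1.24 ± 0.19, adjusted p = 0.00747). Cpe, a carboxypeptidase that processes peptide hormones, read 2.49 and 2.60 against 3.73, 5.32 and 5.37 (2.26 ± 0.34, adjusted p = 0.00747), from a dim wild-type level. Ccr9 read 5.34 and 5.55 against 4.45, 4.70 and 4.46 (-0.91 ± 0.12, adjusted p = 0.00347). Sdc1, the plasma cell surface proteoglycan, read 3.95 and 4.41 against 6.26, 5.48 and 6.05 (1.75 ± 0.21, adjusted p = 0.0021), from a dim wild-type level. The other probe sets of Sdc1, at 0.77, 0.41 and 0.52, did not pass.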
